A study of Mus musculus with 4 samples.

Results

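The IL-12 receptor and its JAK-STAT machinery were examined as 10 genes, taken from the 54532 genes of the count matrix by their symbols. They were the receptor chains Il12rb1 and Il12rb2, the kinases Tyk2, Jak1 and Jak2, the transcription factors Stat3, Stat4 and Stat5a, the shared cytokine receptor chain Il6st (gp130) and the feedback inhibitor Socs3. RNA-sequencing was performed on MPC5 cells, a conditionally immortalized mouse podocyte cell line. The IL-12 treatment group (2 libraries) was kept for 6 h in IL-12 at 400 ng/ml, and the control group (2 libraries) received saline. The dose is taken from the study's methods and the vehicle from its results, and the labels give no time for the control group. All 4 libraries come from this single line, whose proliferation medium contained interferon-γ and whose differentiation medium did not, and nothing in the labels tells if replicate libraries were separate cultures. The p-values therefore measure only the spread between these libraries, which may be technical.

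IL-12 is a cytokine of dendritic cells and macrophages that acts mainly on T cells and natural killer cells. It binds a receptor of the chains IL12RB1 and IL12RB2, which carry the kinases TYK2 and JAK2, and these phosphorylate STAT4 above all, which then enters the nucleus. The gp130 chain serves the IL-6 family of cytokines, signals mainly through JAK1 and STAT3, and is blocked by SOCS3, whose gene is itself a STAT3 target.

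The machinery was unevenly transcribed in these podocytes. The kinases, Stat3, Stat5a, Il6st and Socs3 had from 262 to 14334 counts per library, whereas the receptor chain Il12rb1 had 8 to 26, and Il12rb2 and Stat4 were at or near 0. After IL-12, Stat3 and Il6st fell and Socs3 rose, and none of these changes reached 2-fold. Of the 10 genes, 8 passed the filter on low counts, and Il12rb2 and Stat4 did not. Of the 8, 1 was higher and 2 were lower at an adjusted p below 0.05 (edgeR's quasi-likelihood test, Benjamini-Hochberg adjusted over 14095 genes), and 5 did not pass. Among all 14095 genes tested, 30.5% passed, 16.1% being higher and 14.4% lower, and 1.61% also differed by over 2-fold. With libraries scaled by total counts only, 40.5% of the genes that passed were higher, against 52.8% with TMM scaling, and the members that were lower numbered 4 in place of 2. The IL-12 libraries lay entirely above or entirely below the control libraries for 6 of the 8 members and for 62.9% of all genes tested. The median log2 fold change was -0.12 over the 8 members and -0.00 over all genes tested.

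The libraries held 18355379 to 20098012 counts. Libraries of the same group differed by more than sampling noise (chi-square per degree of freedom 2.13 and 2.41), and libraries of different groups by 16.4 to 19.7. A floor of 3 counts corresponded to 0.152 to 0.166 CPM (counts relative to the library total, scaled by TMM), which covers counting error only. The smallest two-sided p of an exact permutation test with 2 libraries in each group is 0.333, and the edgeR p-values draw on a spread pooled over genes. The podocyte label was checked against 12 markers. The slit diaphragm gene Nphs1 had at most 1 count in any library, Tcf21 and Ptpro had 0, and Synpo, Podxl, Actn4 and Kirrel had from 992 to 26162 counts. Of 10 T cell and natural killer cell markers, 7 had 0 counts in every library, and the list's summed count was 4 to 13 per library.

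The receptor is shown first through the primers that the study used for its qPCR assays, because they mark the parts of both transcripts that were amplified. From these assays the study reported some expression of both receptor genes in mouse podocytes, by a measure unlike the counts here. It also reported qPCR in human podocytes with other primers, and IL12RB1 staining on podocytes in patient kidney biopsies, which are not examined here. The sequences are the study's, given 5′ to 3′ in lower case, and they were matched to the transcripts of GENCODE M21 (GRCm38).
m-IL12RB1-F: cgtgtcggtgaggaaccaaa
m-IL12RB1-R: ccactctgactcccacgc
m-IL12RB2-F: acatgaggctgacccaactg
m-IL12RB2-R: gaagatgagtgggcggagag

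Il12rb1 (ENSMUSG00000000791) encodes the chain shared by the IL-12 and IL-23 receptors and lies on the forward strand at chr8:70808449-70821424 (GRCm38). Its primers lie in coding sequence, the forward primer in exon 12 of 16 (chr8:70816909-70816928) and the reverse primer across the junction of exons 12 and 13 (chr8:70817027-70817039 and chr8:70817212-70817216), and give a product of 136 bases. The gene had 25 and 8 counts under saline, against 18 and 26 under IL-12. The groups overlapped, with control replicate 2 the lowest of the 4 libraries. The exact Poisson intervals (95%) of the control counts, 16.2 to 36.9 and 3.45 to 15.8, did not overlap each other. The mean level was 0.872 ± 0.633 CPM under saline and 1.17 ± 0.373 CPM under IL-12 (SD, n = 2 each), and the log2 fold change of 0.41 (95% interval -0.56 to 1.39) did not pass (edgeR adjusted p = 0.557). Without control replicate 2 the log2 fold change was -0.18, and without control replicate 1 it was 1.45, neither of which passed. No direction can be given for Il12rb1 from these libraries.

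Il12rb2 (ENSMUSG00000018341), the chain that restricts IL-12 responses to cells that make it, lies on the reverse strand at chr6:67291318-67376188. It had 0 counts in both control libraries and 1 and 4 counts in the IL-12 libraries. The exact Poisson intervals reached 3.69 counts for each control library and 5.57 and 10.2 for the IL-12 libraries, so that all 4 intervals overlapped. Both group means were at or under the floor of 3 counts per library, so no fold change is given.

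The end of Il12rb2 overlaps Serbp1 (ENSMUSG00000036371), a gene for an RNA-binding protein on the opposite strand, named here because the Il12rb2 primers lie in the overlap. The deposited gene spans share 6419 bases. Of the 2998 bases of the transcript Il12rb2-201, 819 (27.3%), in 2 of its 16 exons, lie within exons of Serbp1-201. Serbp1 had 8471 and 9189 counts under saline, against 11310 and 10183 under IL-12. Its log2 fold change was 0.28 (SE 0.04, edgeR adjusted p = 5.73e-06). Whether strand was used in the counting is not given in the sources used here. It therefore cannot be told if Il12rb2 reads in the shared stretch were counted. In the control libraries no read of that stretch was counted for Il12rb2, which had 0 counts.

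Both Il12rb2 primers lie in this shared stretch. They match coding sequence of the last exon of Il12rb2-201, exon 16 of 16 (chr6:67292346-67292365 and chr6:67292272-67292291), without an intron between them, and give a product of 94 bases. Both also match the last exon of Serbp1-201, exon 8 of 8, within its 3′ untranslated region and in the opposite orientation, and the product there is the same 94 bases. Among 141767 transcripts searched, both primers of the Il12rb2 pair matched only transcripts of these 2 genes, and both of the Il12rb1 pair only transcripts of Il12rb1.

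**Figure D1:**
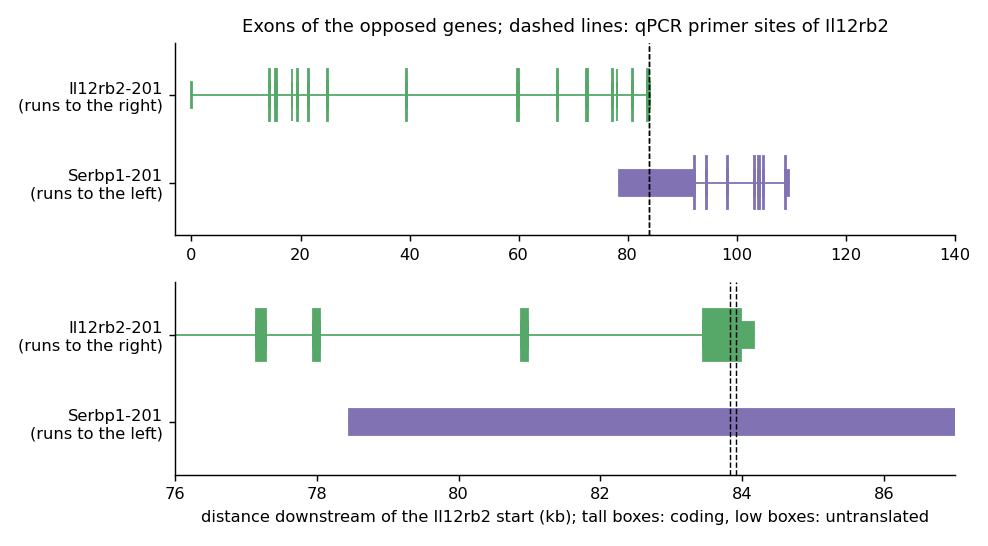
Exons of Il12rb2-201 (green) and Serbp1-201 (purple) against the distance from the Il12rb2 start in kilobases, with the end of Il12rb2 enlarged in the lower panel. Tall boxes are coding and low boxes untranslated, and the dashed lines, which mark the Il12rb2 primers, fall in the last exon of Il12rb2-201 and in the untranslated part of the last exon of Serbp1-201.

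The kinases that the IL-12 receptor uses were present and did not pass the test. Tyk2 (ENSMUSG00000032175, chr9:21104068-21131243, reverse strand), the kinase of IL12RB1, had 659 and 650 counts under saline, against 606 and 588 under IL-12. Both IL-12 libraries were lower, at 31.6 ± 1.32 CPM against 34.6 ± 0.244 CPM (SD, n = 2 each). The log2 fold change was -0.13 (95% interval -0.28 to 0.01, edgeR adjusted p = 0.172).

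Jak2 (ENSMUSG00000024789, chr19:29251828-29313080, forward strand), the kinase of IL12RB2 and of the growth hormone and erythropoietin receptors, had 2161 and 2031 counts under saline, against 2131 and 1941 under IL-12. The groups overlapped, at 111 ± 4.57 CPM and 108 ± 0.305 CPM (SD, n = 2 each). The log2 fold change was -0.04, with a 95% interval from -0.14 to 0.05 (edgeR adjusted p = 0.529).

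Jak1 (ENSMUSG00000028530, chr4:101152367-101265282, reverse strand), the main kinase of gp130 and of the interferon receptors, had 3804 and 3935 counts under saline, against 3791 and 3457 under IL-12. On the CPM scale both IL-12 libraries were lower, at 191 ± 0.386 against 205 ± 5.44 (SD, n = 2 each). The log2 fold change was -0.10 (95% interval -0.18 to -0.02), and the adjusted p was 0.0597 by edgeR's quasi-likelihood test. This call depended on the scaling, since Jak1 passed with upper-quartile scaling (log2 fold change -0.11, adjusted p = 0.0297) and with total counts only (-0.14, adjusted p = 0.0087).

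Per length, as FPKM (a level corrected for gene length and sequencing depth), Jak1 made up 47.2% of the summed level of the 4 JAK genes in the control group and 46.1% in the IL-12 treatment group. The shares were 36.7% and 37.2% for Jak2, 8.4% and 8.0% for Tyk2, and 7.67% and 8.76% for Jak3, the kinase of the common γ chain. The order of Jak1 and Jak2 above the other JAK genes was the same in all 4 libraries.

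Stat4 (ENSMUSG00000062939, chr1:51987148-52107189, forward strand), the main STAT of the IL-12 receptor in lymphocytes, had 0 counts in every library. The floor of 3 counts corresponded to 0.0392 to 0.0429 FPKM per library, and the exact Poisson interval of 0 counts reached slightly higher, to 3.69 counts. The level of Stat3 was 239.5 to 338 times the floor in the same libraries. Of 22046 protein-coding genes, 6499 (29.5%) likewise had 0 counts in every library.

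Stat3 (ENSMUSG00000004040, chr11:100885098-100939540, reverse strand), the main STAT of gp130, had 2493 and 2470 counts under saline, against 1958 and 1768 under IL-12. These were 132 and 131 CPM in the control group and 99.0 and 97.7 CPM in the IL-12 treatment group, so the groups lay far apart beside the spread within each. Stat3 fell (0.750-fold, 95% interval 0.703 to 0.799), a log2 fold change of -0.42 (SE 0.04, edgeR adjusted p = 6.61e-07). It was lower and passed under all 15 alternative settings, with log2 fold changes from -0.46 to -0.38. In bulk RNA, fewer cells with the transcript and less transcript per cell cannot be told apart.

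Stat5a (ENSMUSG00000004043, chr11:100859351-100885169, forward strand), a STAT of the growth hormone, prolactin and IL-2 receptors, is the neighbour of Stat3. The 2 genes face each other, and their deposited spans share 72 bases at the 3′ ends. Stat5a had 627 and 605 counts under saline, against 569 and 528 under IL-12. Both IL-12 libraries were lower, at 29.0 ± 0.299 CPM against 32.6 ± 0.736 CPM (SD, n = 2 each). The log2 fold change of -0.17 (95% interval -0.32 to -0.02) did not pass (edgeR adjusted p = 0.0869), and it passed with total counts only (-0.21, adjusted p = 0.0333).

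Among the 7 STAT genes, per length, Stat6, the STAT of IL-4 and IL-13, had the highest level, with 37.3% of the summed FPKM in the control group and 42.5% in the IL-12 treatment group. The share of Stat3 was 23.4% and 19.8%, that of Stat5b 22.4% in both groups, and that of Stat5a 7.77% and 7.78%. Of the 5 JAK and STAT genes outside the 10, 2 were lower and 3 did not pass. Over all 14095 genes tested, the shares were 14.4% lower and 16.1% higher. Stat2, which acts in the type I interferon response, fell from 21.6 ± 0.877 to 14.1 ± 1.15 CPM (SD, n = 2), at a log2 fold change of -0.62 (SE 0.10, edgeR adjusted p = 9.31e-05). Stat5b had a log2 fold change of -0.17 (edgeR adjusted p = 0.0125), and its adjusted p was 0.0616, 0.0771 and 0.0763 without control replicate 1, IL-12 replicate 1 or IL-12 replicate 2.

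**Figure D2:**
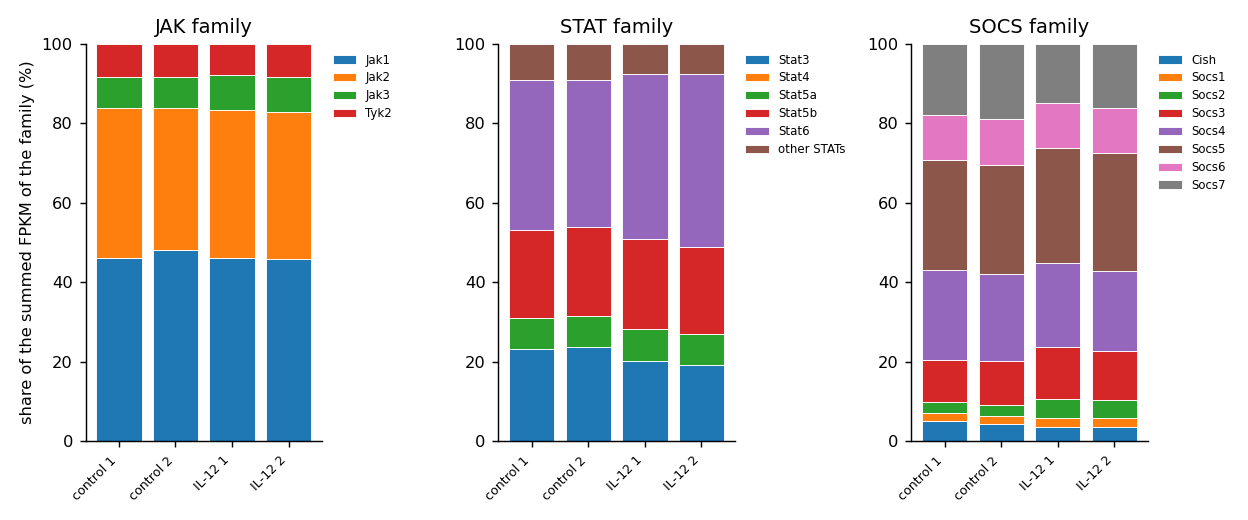
Share (%) of each gene in the summed FPKM of the JAK, STAT and SOCS families, with a stacked bar for each library and the remaining STAT genes summed as other STATs. Jak1 and Jak2 fill most of the JAK bars. Stat6, Stat3 and Stat5b fill most of the STAT bars, with no visible Stat4, and Socs3 takes 10.5 to 13.1% of the SOCS bars.

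Il6st (ENSMUSG00000021756, chr13:112464070-112510086, forward strand), which encodes gp130, was the most abundant of the 10 genes. It had 14334 and 13947 counts under saline, against 12799 and 11597 under IL-12. Both IL-12 libraries lay below both control libraries, at 644 ± 4.21 CPM against 748 ± 12.5 CPM (SD, n = 2 each). The log2 fold change was -0.22 (SE 0.03, 0.861-fold, edgeR adjusted p = 7.17e-06). Under the 15 alternative settings it ranged from -0.26 to -0.20 and passed in each.

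The ligands and partner receptors of gp130 were followed in a list of 13 genes, of which 10 were tested. Of these, 3 were higher, 1 was lower and 6 did not pass, with a median log2 fold change of 0.12. For this list and the lists below, the shares over all 14095 genes tested were 16.1% higher and 14.4% lower. Lif, leukemia inhibitory factor, rose from 85.2 ± 2.51 to 135 ± 9.90 CPM (SD, n = 2), at a log2 fold change of 0.66 (edgeR adjusted p = 1.78e-08). Clcf1, a cardiotrophin-like ligand, had a log2 fold change of 0.38 (edgeR adjusted p = 2.13e-07). Both passed under each of the 15 alternatives. Il11ra1, the IL-11 receptor chain, was the lower gene, at -0.23 (edgeR adjusted p = 0.0309), and its adjusted p was 0.383, 0.211 and 0.131 without control replicate 1, IL-12 replicate 1 or IL-12 replicate 2. Il6 had 1 to 6 counts per library, and Osm had 0 in each.

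**Figure D3:**
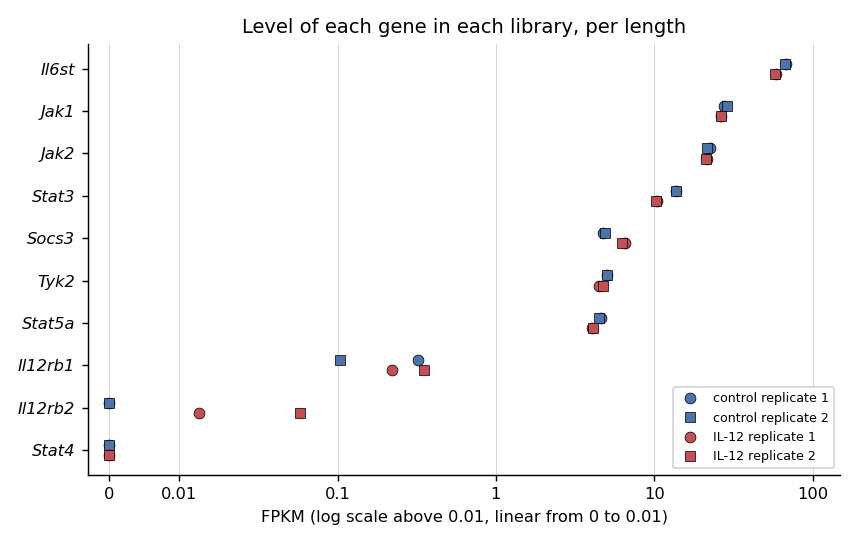
Level of each of the 10 genes per length (FPKM, logarithmic above 0.01 and linear from 0 to 0.01) in the control (blue) and IL-12 (red) libraries, one point per library. Il6st lies highest at 57.8 to 68.1, Il12rb1 lies between 0.103 and 0.350, and Il12rb2 and Stat4 lie at or near 0.

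Per length, the order of the 10 genes by mean FPKM over the 4 libraries was Il6st (62.7), Jak1 (27.4), Jak2 (21.7), Stat3 (12.1), Socs3 (5.59), Tyk2 (4.82), Stat5a (4.32), Il12rb1 (0.249), Il12rb2 (0.0179) and Stat4 (0). Socs3 and Tyk2 overlapped in their ranges over the libraries, as did Tyk2 and Stat5a, and Il12rb2 and Stat4. The other neighbours did not overlap. The widest step among genes above the floor was from Stat5a to Il12rb1, at 17.3-fold. Of all protein-coding genes, 96.8% had a lower mean FPKM than Il6st, 80.0% a lower one than Stat3 and 47.7% a lower one than Il12rb1.

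Socs3 (ENSMUSG00000053113, chr11:117966079-117970047, reverse strand), which binds gp130 and the JAK kinases and shuts them off, was the only one of the 8 tested members that passed as higher. It had 262 and 266 counts under saline, against 371 and 325 under IL-12. The level was 14.0 ± 0.187 CPM in the former and 18.4 ± 0.558 CPM in the latter (SD, n = 2 each), without overlap. The log2 fold change was 0.40 (SE 0.10, 1.32-fold with a 95% interval of 1.14 to 1.52), with an edgeR adjusted p of 0.00485. The call was lost in the DESeq2 Wald test (0.39, adjusted p = 0.0503) and without IL-12 replicate 1 (0.36, adjusted p = 0.0655).

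The other 7 SOCS genes were all tested, and 2 were higher and 5 did not pass, with a median log2 fold change of 0.15. Socs2, the inhibitor of growth hormone signaling, rose from 12.2 ± 0.229 to 21.6 ± 0.985 CPM (SD, n = 2), at a log2 fold change of 0.83 (SE 0.10, edgeR adjusted p = 3.40e-06), and it passed in every alternative. Socs5, which had the highest level per length of the family, had a log2 fold change of 0.24 (edgeR adjusted p = 0.0025), with an adjusted p of 0.0525 without IL-12 replicate 2. Socs1, the inhibitor of interferon-γ signaling, had 52 and 48 counts under saline, against 66 and 64 under IL-12 (log2 fold change 0.38, edgeR adjusted p = 0.223). Cish, a STAT5 target, had a log2 fold change of -0.28 (edgeR adjusted p = 0.0882).

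The 9 other regulators of the pathway that were followed were the PIAS proteins and phosphatases with the adaptor Sh2b3. Of these, 3 were higher, 3 were lower and 3 did not pass, with a median log2 fold change of -0.10. Pias3, a SUMO ligase known for binding STAT3, had a log2 fold change of -0.32 (edgeR adjusted p = 1.48e-05). Pias1, its relative, was at -0.29 (edgeR adjusted p = 0.000485), and these 2 passed in every alternative. Pias4 was at -0.18 (edgeR adjusted p = 0.020) and did not pass whichever library was left out, with an adjusted p between 0.0576 and 0.104. Ptpn2, a phosphatase of JAK1 and STAT proteins, was at 0.23 and Sh2b3, an adaptor that restrains JAK2, at 0.22 (edgeR adjusted p = 0.0094 and 0.00225). The Ptpn2 call was lost without control replicate 2, IL-12 replicate 1 or IL-12 replicate 2 (adjusted p = 0.0749, 0.0863 and 0.0607), and the Sh2b3 call without IL-12 replicate 1 (0.0628). The third higher gene was Ptpn11, named as the remaining gene of its count and outside the naming rule, at 0.10 (edgeR adjusted p = 0.0176), with an adjusted p of up to 0.0927 when a library was left out.

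**Figure D4:**
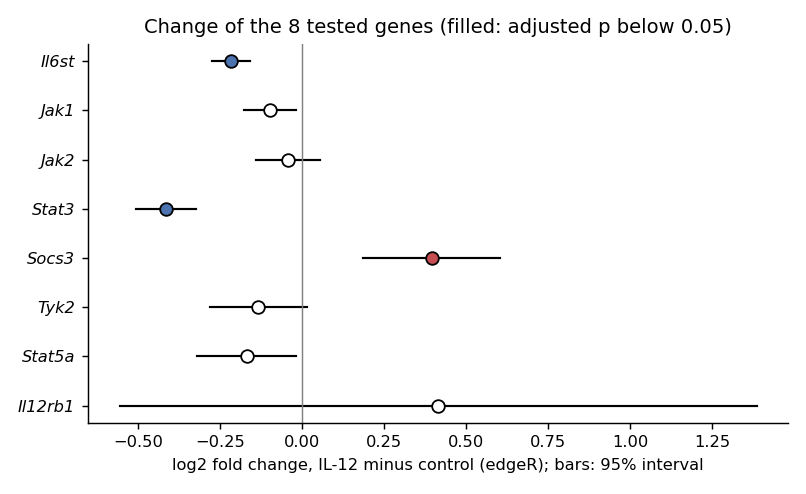
Log2 fold change (IL-12 minus control, edgeR) of the 8 tested members with 95% intervals, filled where the adjusted p was below 0.05. Stat3 (-0.42) and Il6st (-0.22) are filled below 0 and Socs3 (0.40) above 0, Jak1 and Stat5a have intervals just below 0 without passing the adjusted p, and the interval of Il12rb1 is the widest.

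The promoters of 9 of the 10 genes were found in the RefSeq table (GRCm38.p6), as windows of 300 bases from 250 bases before the start to 50 after it. They were searched on both strands for TTCNNNGAA, the palindrome that STAT dimers bind. It was found in 2 of the 9 genes, Socs3 and Il12rb2, and in 9.55% of the 27025 genes with a window (8.30% of 32851 windows). Those windows are shown with that of Stat3, the member with the largest called change, which held no match. Capitals mark the match, and each is written 5′ to 3′ on the strand of its gene.
Socs3 (chr11:117969317-117969616, reverse strand): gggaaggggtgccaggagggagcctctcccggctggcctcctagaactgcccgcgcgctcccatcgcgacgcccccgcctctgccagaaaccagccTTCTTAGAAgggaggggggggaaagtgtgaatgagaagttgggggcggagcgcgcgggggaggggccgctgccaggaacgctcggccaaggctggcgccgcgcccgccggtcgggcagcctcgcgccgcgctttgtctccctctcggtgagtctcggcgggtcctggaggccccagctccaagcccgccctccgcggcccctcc
Il12rb2 (chr6:67376139-67376438, reverse strand): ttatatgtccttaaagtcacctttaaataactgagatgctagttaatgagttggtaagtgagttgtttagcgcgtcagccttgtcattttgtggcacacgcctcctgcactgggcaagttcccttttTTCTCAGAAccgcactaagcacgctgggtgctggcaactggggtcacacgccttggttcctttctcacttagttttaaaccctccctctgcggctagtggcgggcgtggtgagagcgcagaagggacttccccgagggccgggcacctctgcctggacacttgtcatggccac
Stat3 (chr11:100939491-100939790, reverse strand): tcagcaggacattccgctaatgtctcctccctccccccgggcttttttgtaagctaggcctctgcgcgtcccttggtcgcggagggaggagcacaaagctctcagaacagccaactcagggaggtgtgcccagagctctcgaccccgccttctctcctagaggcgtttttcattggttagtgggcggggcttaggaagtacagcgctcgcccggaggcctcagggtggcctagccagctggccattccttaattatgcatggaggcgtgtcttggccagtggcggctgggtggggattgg

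The Socs3 match, TTCTTAGAA, began 154 bases before the RefSeq start used for its window. That start lies within the deposited span of Socs3, so this match is inside the deposited gene. The Il12rb2 match, TTCTCAGAA, began 123 bases before its RefSeq start. These genes differed in level, Socs3 being at 5.59 FPKM and Il12rb2 at 0.0179 FPKM on average. A match describes the letters of the window and is not a measured binding site. Of 20 known STAT3 targets, 17 had a window and 2 of those held the palindrome.

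The genes downstream of the STAT proteins were followed in 4 lists of known targets, which share some genes (Socs3, Pim1, Ccnd1, Cish, Socs2 and Irf1 among them). Over all 14095 genes tested, 16.1% were higher and 14.4% were lower. The lists were chosen with earlier results of these data known, so their counts are not an independent test. Of 20 STAT3 targets, 17 were tested, 10 were higher, 1 was lower and 6 did not pass, and the median log2 fold change was 0.24, or 0.22 over 16 genes without Socs3. Timp1, an inhibitor of metalloproteinases, rose from 31.4 ± 0.458 to 55.5 ± 2.69 CPM (SD, n = 2), at a log2 fold change of 0.82 (SE 0.06, edgeR adjusted p = 1.64e-08). Myc, a growth-promoting transcription factor, Ccnd1, cyclin D1, and Pim3, a survival kinase, had log2 fold changes of 0.60, 0.55 and 0.43 (edgeR adjusted p = 5.86e-08, 1.09e-10 and 1.80e-06). Fos, an immediate early gene, was lower at -0.46 (edgeR adjusted p = 0.0182). Its log2 fold change was -0.37 without control replicate 2 and -0.33 without IL-12 replicate 1. The Fos call depended on which library was left out. With all 4 libraries, it was lost without a filter beyond 1 count, in the DESeq2 Wald test and with limma on FPKM. Of the 11 genes that passed, 6 passed in every alternative, all of them higher, and 7 to 10 were higher when a library was left out. These targets also respond to other pathways, whose part in the values was not tested.

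Of 16 genes that STAT4 induces in lymphocytes, 6 were tested, 3 were higher and 3 did not pass, with a median log2 fold change of 0.18. Ifng, Tbx21 (T-bet), Gzmb, Il10 and Il2ra had 0 counts in every library. Il18rap, the accessory chain of the IL-18 receptor, had 53 and 45 counts under saline, against 158 and 146 under IL-12. This was the largest change of the list, a log2 fold change of 1.63 (SE 0.18, 3.09-fold, edgeR adjusted p = 1.05e-06), and it passed in each alternative. Its partner chain Il18r1 had 0 counts in 3 libraries and 3 in IL-12 replicate 2. Gadd45g, a stress response gene, rose from 101 ± 8.46 to 157 ± 12.3 CPM (SD, n = 2), at a log2 fold change of 0.64 (edgeR adjusted p = 8.98e-08). Furin, a protein convertase, was at 0.14 (edgeR adjusted p = 0.0119), and its adjusted p was 0.0928 without control replicate 2 and 0.0641 without IL-12 replicate 1.

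Of 10 STAT5 targets, 8 were tested, 5 were higher, 1 was lower and 2 did not pass, with a median log2 fold change of 0.29. Socs2, with the values already given, was among the higher genes, and the lower gene was Bcl6, a repressor that STAT5 represses, which fell from 34.1 ± 1.52 to 21.1 ± 0.980 CPM (SD, n = 2), at a log2 fold change of -0.69 (SE 0.08, edgeR adjusted p = 2.14e-06). Pim1, a survival kinase, was at 0.38 and Ccnd2, cyclin D2, at 0.20 (edgeR adjusted p = 0.00336 and 0.0183). The Ccnd2 call was lost without control replicate 1, IL-12 replicate 1 or IL-12 replicate 2 (adjusted p = 0.146, 0.0864 and 0.123). Igf1, named outside the rule because its mean was below 1 CPM, had 6 and 10 counts under saline, against 28 and 17 under IL-12, the largest log2 fold change of the list (1.47, SE 0.47), and its edgeR adjusted p of 0.0228 became 0.184 without control replicate 1 and 0.238 without IL-12 replicate 1.

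Of 16 interferon targets, 15 were tested, 2 were higher, 4 were lower and 9 did not pass, with a median log2 fold change of -0.07. Ifit3, an antiviral effector, fell from 25.9 ± 2.20 to 8.60 ± 0.204 CPM (SD, n = 2), at a log2 fold change of -1.59 (SE 0.11, edgeR adjusted p = 1.97e-09). Gbp4, an interferon-induced GTPase, was at -0.57 (edgeR adjusted p = 1.28e-05), and both passed in every alternative. The calls of Ifit1 (-1.06), Tap1 (-0.14, named outside the rule as the last of the 4), Irf8 (0.46) and Cxcl10 (0.36) had edgeR adjusted p-values of 0.0250, 0.0455, 0.0234 and 0.0368. The Ifit1 and Cxcl10 calls were lost whichever library was left out, Tap1 kept its call only without control replicate 1 and Irf8 only without control replicate 2, with adjusted p-values of 0.0522 to 0.464 where a call was lost.

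**Figure D5:**
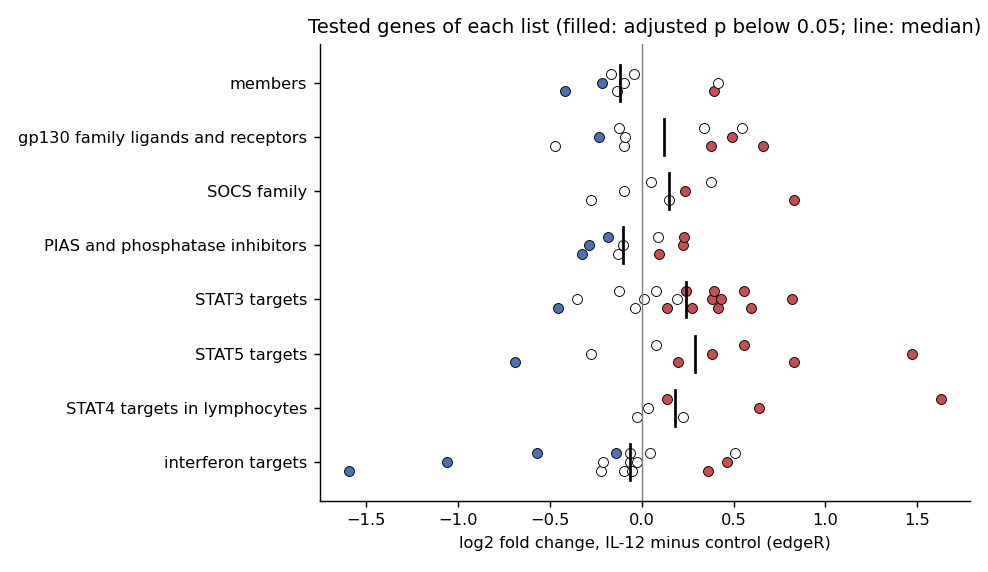
Log2 fold change (IL-12 minus control, edgeR) of each tested gene of the 10 members and of 7 related lists, filled where the adjusted p was below 0.05, with a line at each list's median. The medians run from -0.12 for the members to 0.29 for the STAT5 targets, and the points run from Ifit3 at -1.59 among the interferon targets to Il18rap at 1.63 among the STAT4 targets.

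The ligand chains of IL-12 itself were not detected. Of 7 other chains of the IL-12 family, Il12a, Il12b and Ebi3 had 0 counts in every library, and Il23a and Il27 had 1 count in IL-12 replicate 1. The receptor chains Il23r and Il27ra had 10 to 17 counts per library and were the 2 tested, with edgeR adjusted p-values of 0.488 and 0.818. Il23r, which pairs with IL12RB1 in the IL-23 receptor, had 11 and 13 counts under saline, against 17 and 16 under IL-12.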

How the data were processed

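RNA-sequencing was analysed for mouse podocytes (MPC5) with or without IL-12. The authors deposited raw counts per gene, whole numbers that were not normalized, and FPKM values, each of which equals the count corrected for library total and deposited gene length, up to a constant of 0.985 to 1.02 per library. The submitters' processing notes name HISAT2, StringTie and the build mm9, but the deposited coordinates equal those of GRCm38 (GENCODE M21) for 98.3% of 54409 genes and for all 10 members, which is the build of all coordinates here. The counting program and its strand setting are not given in the sources used here.

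Counts were tested with edgeR 4.0.16 (R 4.3.3), after filterByExpr (at least 10 counts, 15 in total) and TMM scaling (factors 0.985 to 1.02), by the quasi-likelihood test without a replicate block and with Benjamini-Hochberg adjustment. Standard errors were derived from the log2 fold change and its F statistic. Alternatives used DESeq2 1.42.0 and limma 3.58.1. The test was checked on simulated data. Groups were taken from the labels. The members and lists were chosen with earlier results of these data known. All members are named, and of each other list at most 5 genes of at least 1 CPM past the threshold with the largest change, plus genes of the IL-12 axis at 0. Markers, family members and partner chains that did not pass, Serbp1 and genes marked as outside the rule are exceptions, named after their values were seen. Some genes that the rule or the marker lists pick are not reported here. Likeness between genes was not ranked over 4 libraries.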

Additional observations from a re-analysis of the deposited data

How the results depend on the processing

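Of 118 values of the 8 tested members under other settings, 111 kept their direction and their side of the threshold, 2 no longer passed (both Socs3), 3 newly passed (Jak1 under 2 scalings, Stat5a under 1) and 2 turned direction. With total counts only, 4 members were lower, and with the DESeq2 Wald test 0 were higher (Socs3 adjusted p = 0.0503). When each library was left out in turn, 0 to 1 members were higher and 2 were lower, the log2 fold change of Jak2 lay between -0.085 and 0.00085 and that of Il12rb1 between -0.18 and 1.45, and the lone library was assumed to vary like the other group. In these fits 144 to 254 genes passed with over 2-fold, against 227, and 2528 to 3722 at any fold, against 4297. Without a filter beyond 1 count, 133 and 2597 genes passed, and with DESeq2 107 and 2685. With limma on log2(FPKM + 1), 38 genes passed with over 2-fold, and on log2(FPKM + 0.1), 141. The pseudocount lowers the change of low genes, and the other causes were not tested. With the replicate block, 241 genes passed with over 2-fold and 4341 at any fold, and it changed no member's call. The groups share only a number, and the deviations of same-numbered libraries had a correlation of -0.027 across genes. Il12rb1 had no adjusted p with at least 10 counts in every library or with DESeq2. Outside the members, Fos, Il11ra1, Ccnd2, Furin, Ptpn11, Tap1 and Irf8 did not pass in the DESeq2 Wald test or in either limma fit on FPKM. Stat5b, Pias4, Ptpn2 and Cxcl10 did not pass in the DESeq2 Wald test. Igf1 did not pass in either limma fit and had no adjusted p with DESeq2. The order of the 10 genes by level was the same as TPM. Depth limited Il12rb2 and Stat4, which lay near or below the floor of 3 counts. Il12rb1 had 8 to 26 counts, and its control libraries differed by more than counting error.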

Other observations

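Markers of macrophages, leukocytes and endothelium were also read. Of 10 macrophage and dendritic cell markers, 3 were tested, 2 were lower and 1 did not pass, and the list's summed level was 42.2 and 43.0 CPM under saline, against 25.9 and 29.1 CPM under IL-12. Csf1r, the receptor of macrophage colony-stimulating factor, fell from 22.2 ± 1.14 to 12.1 ± 1.40 CPM (SD, n = 2), at a log2 fold change of -0.88 (SE 0.11, edgeR adjusted p = 3.41e-06). Cd14, a lipopolysaccharide coreceptor, was at -0.64 (edgeR adjusted p = 0.000412), and both passed in every alternative. The defining macrophage markers Adgre1 and Tyrobp had 0 counts in every library. Ptprc, the pan-leukocyte marker CD45, had 3 and 1 counts under saline, against 6 and 12 under IL-12, and was not tested. None of 6 endothelial markers was tested, and their summed count was 5 to 12 per library.

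Among the 12 podocyte markers, 7 were tested, 3 were higher and 1 was lower. Synpo, the actin-associated protein synaptopodin, fell from 480 ± 13.7 to 304 ± 3.79 CPM (SD, n = 2), at a log2 fold change of -0.66 (SE 0.03, edgeR adjusted p = 3.00e-11). Podxl, podocalyxin, and Actn4, an actin crosslinker, were at 0.33 and 0.17 (edgeR adjusted p = 0.000391 and 6.07e-05), and the Podxl adjusted p was 0.0516 without IL-12 replicate 1. Whether the changes in these lists bear on those of Stat3, Il6st and Socs3 was not tested.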
